A study of Mus musculus with 4 samples.

Results

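The genes described here encode the exchangeable subunits of the BAF complex, the mammalian SWI/SNF chromatin remodeller. The list holds 10 genes, taken by symbol from the 29224 genes in the deposited tables, and each symbol matched 1 row. They are Actl6a and Actl6b, which encode the actin-like subunits BAF53A and BAF53B, the BAF45 genes Phf10, Dpf2, Dpf1 and Dpf3, the genes Ss18 and Ss18l1, and the ATPase genes Smarca4 (BRG1) and Smarca2 (BRM). The rule used symbols and no measured value of these genes, although the list was chosen with earlier results of these data known. All 10 passed the filter on low counts that left 16793 genes for testing.

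The BAF complex uses ATP to slide or evict nucleosomes and acts in opposition to Polycomb repression, whose histone methyltransferase is EZH2. As neural progenitors leave the cell cycle and become neurons, the progenitor form of the complex (npBAF) exchanges ACTL6A, PHF10 or DPF2, and SS18 for ACTL6B, DPF1 or DPF3, and SS18L1 (also called CREST), which gives the neuronal form (nBAF). In progenitors the repressor REST holds down the microRNAs miR-9-3p (miR-9*) and miR-124, and once these are released they repress Actl6a through its 3' UTR. Either ATPase can drive the complex, with BRG1 predominant in progenitors.

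RNA was sequenced from the cerebral cortex of mice at postnatal day 5 (P5), from astrocytes enriched on magnetic beads with an antibody to GLAST (ACSA-1), a glutamate transporter on the surface of astrocytes. The Ezh2 f/f group (2 libraries) carried floxed Ezh2 alleles, and the Ezh2 cKO group (2 libraries) carried the same alleles with Cre under the promoter of Aldh1l1, an astrocyte gene. The labels do not say how many mice made up a library or whether the libraries came from separate litters, so the p-values measure the spread between these libraries, which may be technical. Library totals ranged from 16273308 to 17522152 counts.

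The targeted gene Ezh2 had 434 and 327 counts in Ezh2 f/f against 211 and 164 in Ezh2 cKO, with a log2 fold change of -1.11 ± 0.16 (SE, n = 2 per group, adjusted p = 3.26e-05 in edgeR's quasi-likelihood test). Fold changes here divide Ezh2 cKO by Ezh2 f/f. The 2 groups differed across most of the transcriptome. Of the genes tested, 68.4% were called at an adjusted p under 0.05, 34.7% higher and 33.6% lower in Ezh2 cKO, and the median absolute log2 fold change was 0.69. A call alone therefore sets no gene apart, and each value below is read beside this background.

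The sorted cells also held transcripts of other cell types, and these moved with genotype. Summed over 12 astrocyte markers, the level was 190.9 and 191.2 FPKM (counts scaled to gene length and to the library total) in Ezh2 f/f, against 686.3 and 618.6 in Ezh2 cKO. Over 12 mature neuron markers it was 283.8 and 298.9 against 1408 and 1390 FPKM. Over 12 immature neuron markers it was 3593 and 3761 against 2659 and 2681 FPKM. In every library of these cells, labelled as astrocytes, each neuronal sum was thus above the astrocyte sum. Sums over different genes do not compare amounts of cell types, since a few abundant genes can set them. Tubb3, an immature neuron marker, alone stood at 1859 and 1897 FPKM in Ezh2 f/f. In a bulk sample, fewer cells of a type and less RNA per cell cannot be told apart, and the part of this shift in the subunit results was not tested.

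Sequences that bear on the known control of the exchange by miR-9-3p and REST are shown first, because they differ between Actl6a and Actl6b. In a search of the longest annotated 3' UTR of each gene (GENCODE M21, GRCm38), the letters AGCTTTA, which pair with the seed of miR-9-3p (bases 2 to 8), were present in Actl6a and Smarca2 and in no other member. Such a match occurred in 11.3% of 21020 genes searched. Sites for miR-124 were not searched. In Actl6a it began at base 38 of a 371-base 3' UTR, and in Smarca2 at base 132 of 952. The mature microRNA (RefSeq) is given with its seed in capitals, and the sites with the matching letters in capitals.
miR-9-3p: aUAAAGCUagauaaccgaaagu
Actl6a site, chr3:32726625-32726654, plus strand: cacctcaacgtctgtAGCTTTAgtacactc
Smarca2 site, chr19:26777487-26777516, plus strand: ttgtcatctagaactAGCTTTAgggtagtg

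Promoter windows from 250 bases before to 50 bases after the annotated start were found in RefSeq (GRCm38.p6) for 9 of the 10 genes, all but Ss18. They were searched on both strands for the arms of the RE1 element bound by REST, the left arm CAGCACC and the right arm GGACAGC, letters chosen with the sequences in view. The left arm was present in 7.14% and the right arm in 6.56% of 32851 windows, and both in 0.575%, in any order, strand or spacing. Among the subunit genes, matches were found in the Actl6b window, which held both arms on the minus strand, 21 and 37 bases past the start with 9 bases between them. The other 8 windows had no match. These are matches of letters and not measured binding. The spacing of the arms was not part of the search, so the matches do not establish an RE1 element. The windows of Actl6a and Actl6b are printed as the pair that exchanges, and those of Dpf1 and Ss18l1 as the neuronal subunit genes that fell most. Capitals mark the arms, as read on the strand shown.
Actl6b promoter, chr5:137553296-137553595, plus strand: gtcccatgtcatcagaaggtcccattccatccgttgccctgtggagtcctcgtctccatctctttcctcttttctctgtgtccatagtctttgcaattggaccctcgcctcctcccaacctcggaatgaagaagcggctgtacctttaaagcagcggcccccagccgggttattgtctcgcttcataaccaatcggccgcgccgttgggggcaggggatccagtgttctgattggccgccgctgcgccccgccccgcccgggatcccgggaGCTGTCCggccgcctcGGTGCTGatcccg
Actl6a promoter, chr3:32708296-32708595, plus strand: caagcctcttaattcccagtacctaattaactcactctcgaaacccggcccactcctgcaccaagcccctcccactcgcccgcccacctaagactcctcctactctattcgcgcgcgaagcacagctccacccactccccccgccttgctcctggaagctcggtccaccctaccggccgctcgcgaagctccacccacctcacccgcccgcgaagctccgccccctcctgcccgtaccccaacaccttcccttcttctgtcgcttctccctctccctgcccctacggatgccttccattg
Dpf1 promoter, chr7:29303755-29304054, plus strand: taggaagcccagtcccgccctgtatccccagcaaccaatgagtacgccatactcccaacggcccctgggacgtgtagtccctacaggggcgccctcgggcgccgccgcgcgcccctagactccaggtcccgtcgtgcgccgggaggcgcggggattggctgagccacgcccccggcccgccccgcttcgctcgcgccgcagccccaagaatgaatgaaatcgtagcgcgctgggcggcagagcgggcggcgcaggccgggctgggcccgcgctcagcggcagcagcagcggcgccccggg
Ss18l1 promoter, chr2:180042233-180042532, plus strand: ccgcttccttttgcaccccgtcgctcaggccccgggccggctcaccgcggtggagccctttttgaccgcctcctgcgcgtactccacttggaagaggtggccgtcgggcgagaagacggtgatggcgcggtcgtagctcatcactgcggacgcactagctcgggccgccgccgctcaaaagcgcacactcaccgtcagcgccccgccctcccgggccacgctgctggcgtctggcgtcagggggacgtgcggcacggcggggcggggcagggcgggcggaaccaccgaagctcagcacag

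The printed windows held 21 CpG dinucleotides in Actl6a, 23 in Actl6b and 39 in both Dpf1 and Ss18l1, against a median of 7 over all windows. Of all windows, 75.2% had fewer than Actl6a, 78.5% fewer than Actl6b and 95.6% fewer than Dpf1 or Ss18l1. The highest number among the subunit genes was in Phf10, with 62. Histone marks and DNA methylation at these windows were not analysed here.

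Of the 10 subunit genes, 5 fell in Ezh2 cKO (Actl6a, Dpf1, Ss18l1, Dpf2 and Actl6b), 2 rose (Phf10 and Ss18) and 3 were not called (Dpf3, Smarca4 and Smarca2), a share called of 7 in 10 beside 68.4% of all genes. Their median log2 fold change was -0.28, beside 0.02 for all genes tested. The genes did not divide by the form of complex they belong to. Among the neuronal subunit genes Dpf1, Ss18l1 and Actl6b fell, and among the progenitor subunit genes Actl6a and Dpf2 fell while Phf10 and Ss18 rose. In TMM-scaled counts relative to library size (CPM), the libraries of the groups did not overlap for 9 of the 10 genes, the exception being Smarca2, a share near the 84.3% of all genes tested whose groups did not overlap.

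**Figure D1:**
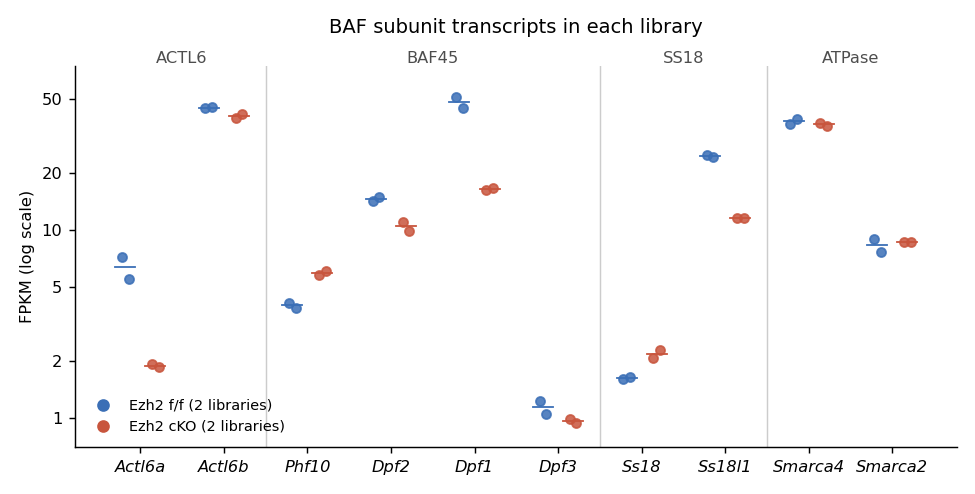
FPKM of each subunit gene in each library on a log axis, with points for libraries, short lines for group means and columns grouped by position in the complex. Actl6a lay at 7.23 and 5.47 FPKM in Ezh2 f/f and at 1.93 and 1.87 in Ezh2 cKO, whereas Smarca4 stayed between 35.8 and 39.1 in all 4 libraries.

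Actl6a, the progenitor actin-like subunit (ENSMUSG00000027671, chr3:32760447-32781122 as deposited, on a build that the tables do not name), had the steepest fall of the 10. It had 492 and 346 counts in Ezh2 f/f against 130 and 121 in Ezh2 cKO. In FPKM these were 7.23 and 5.47 against 1.93 and 1.87, so that both Ezh2 f/f libraries lay well above both Ezh2 cKO libraries. The log2 fold change was -1.82 ± 0.17 (SE, n = 2 per group, adjusted p = 3.27e-07), a level in Ezh2 cKO at 28.2% of that in Ezh2 f/f. Of all genes tested, 4.17% had a lower fold change.

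Actl6b, the neuronal actin-like subunit (ENSMUSG00000029712, chr5:137551779-137567844 as deposited), was among the most abundant of the 10 and changed little. It stood at 44.4 and 45.3 FPKM in Ezh2 f/f against 39.4 and 41.6 in Ezh2 cKO, above 92.3% and 91.8% of the genes tested. The counts were 3323 and 3147 against 2917 and 2963. The log2 fold change was -0.23 ± 0.09 (SE, n = 2 per group, adjusted p = 0.0281). This call was lost without Ezh2 cKO library 1 (adjusted p = 0.144) or library 2 (0.0640), and its adjusted p lay between 0.016 and 0.144 over the 11 alternatives.

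Within the pair, the FPKM ratio of Actl6b to Actl6a was 6.15 and 8.28 in the Ezh2 f/f libraries against 20.4 and 22.3 in the Ezh2 cKO libraries. It thus shifted towards the neuronal paralog by 1.58 on the log2 scale, or 2.99-fold, with a pooled SD of 0.22 between libraries. The shift came with the fall of Actl6a and without a rise of Actl6b. Actl6a made up 14.0% and 10.8% of the summed FPKM of the pair in Ezh2 f/f, against 4.67% and 4.29% in Ezh2 cKO. An exact two-sided permutation test gave p = 0.333, the smallest that 2 against 2 libraries allow, so this and the ratios that follow are descriptions.

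Dpf1 (BAF45B, a neuronal PHD finger subunit, ENSMUSG00000030584, chr7:29003376-29017668 as deposited) had the highest mean level of the 10 in Ezh2 f/f and fell steeply. It stood at 51.1 and 44.7 FPKM in Ezh2 f/f against 16.4 and 16.7 in Ezh2 cKO, from 4811 and 3911 counts against 1530 and 1498. The groups were far apart. The log2 fold change was -1.62 ± 0.10 (SE, n = 2 per group, adjusted p = 4.49e-09), and 5.40% of all genes tested had a lower one.

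Dpf3 (BAF45C, the other neuronal BAF45 gene, ENSMUSG00000021221, chr12:83260519-83534490 as deposited) was the least abundant member. It had 91 and 72 counts in Ezh2 f/f against 72 and 66 in Ezh2 cKO, which is 1.23 and 1.05 against 0.983 and 0.937 FPKM. Its log2 fold change of -0.33 had a 95% interval from -0.82 to 0.16 (n = 2 per group, adjusted p = 0.214), an interval that holds both a fall as large as that of Dpf2 and a small rise.

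The progenitor BAF45 genes moved in opposite directions. Phf10 (BAF45A, ENSMUSG00000023883, chr17:15165271-15181535 as deposited) rose from 4.08 and 3.85 FPKM in Ezh2 f/f to 5.73 and 6.06 in Ezh2 cKO, with 351 and 308 counts against 488 and 497. The log2 fold change was 0.49 ± 0.12 (SE, n = 2 per group, adjusted p = 0.00254). Dpf2 (BAF45D, also expressed in many tissues outside the brain, ENSMUSG00000024826, chr19:5946544-5963038 as deposited) fell from 14.3 and 14.9 to 11.1 and 9.83 FPKM, with 1625 and 1577 counts against 1248 and 1066. Its log2 fold change was -0.56 ± 0.10 (SE, n = 2 per group, adjusted p = 2.1e-04). For both genes the Ezh2 f/f and Ezh2 cKO libraries did not overlap.

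At the BAF45 position the neuronal share of the summed FPKM fell, through Dpf1 and not Dpf3. The FPKM of Dpf1 and Dpf3 over that of Phf10 and Dpf2 was 2.85 and 2.44 in Ezh2 f/f against 1.04 and 1.11 in Ezh2 cKO, a log2 change of -1.30 (pooled SD 0.12, exact permutation p = 0.333). The widest change within the family was in Dpf1 over Phf10, from 12.5 and 11.6 to 2.87 and 2.76, a log2 change of -2.10. The share of Phf10 in the summed FPKM of the 4 genes was 5.77% and 5.97% in Ezh2 f/f, against 16.7% and 18.1% in Ezh2 cKO, while that of Dpf1 was 72.3% and 69.3% against 48.0% and 49.8%. The share of Dpf3 was larger in Ezh2 cKO, at 2.87% and 2.79% beside 1.74% and 1.62%, and its FPKM over that of Dpf2 changed by 0.24 on the log2 scale, with no overlap between the groups. The family total was 67.6 ± 4.34 FPKM in Ezh2 f/f, against 33.9 ± 0.48 in Ezh2 cKO (SD, n = 2 each).

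Ss18l1 (CREST, a calcium-responsive transactivator of dendrite growth, ENSMUSG00000039086, chr2:179684302-179711994 as deposited) fell from 25.2 and 24.6 FPKM in Ezh2 f/f to 11.5 and 11.6 in Ezh2 cKO. The counts were 1916 and 1740 against 868 and 840, with little spread within either group. The log2 fold change was -1.19 ± 0.09 (SE, n = 2 per group, adjusted p = 8.15e-08), a level in Ezh2 cKO at 43.8% of that in Ezh2 f/f.

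Ss18 (ENSMUSG00000037013), its progenitor counterpart, was low in all libraries, at 1.61 and 1.66 FPKM in Ezh2 f/f against 2.09 and 2.31 in Ezh2 cKO. The counts were 287 and 275 against 369 and 392. The log2 fold change was 0.34 ± 0.13 (SE, n = 2 per group, adjusted p = 0.0317). The call was lost without Ezh2 cKO library 1 (adjusted p = 0.0654), Ezh2 cKO library 2 (0.166) or Ezh2 f/f library 1 (0.0797), and its adjusted p lay between 0.0222 and 0.166 over the 11 alternatives. The FPKM ratio of Ss18l1 to Ss18 fell from 15.7 and 14.9 to 5.52 and 5.03, a log2 change of -1.53 (pooled SD 0.08, exact permutation p = 0.333), and this ratio, like that of the BAF45 genes, moved towards the progenitor paralog. Ss18l1 still made up 84.7% and 83.4% of the pair in Ezh2 cKO, against 94.0% and 93.7% in Ezh2 f/f.

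**Figure D2:**
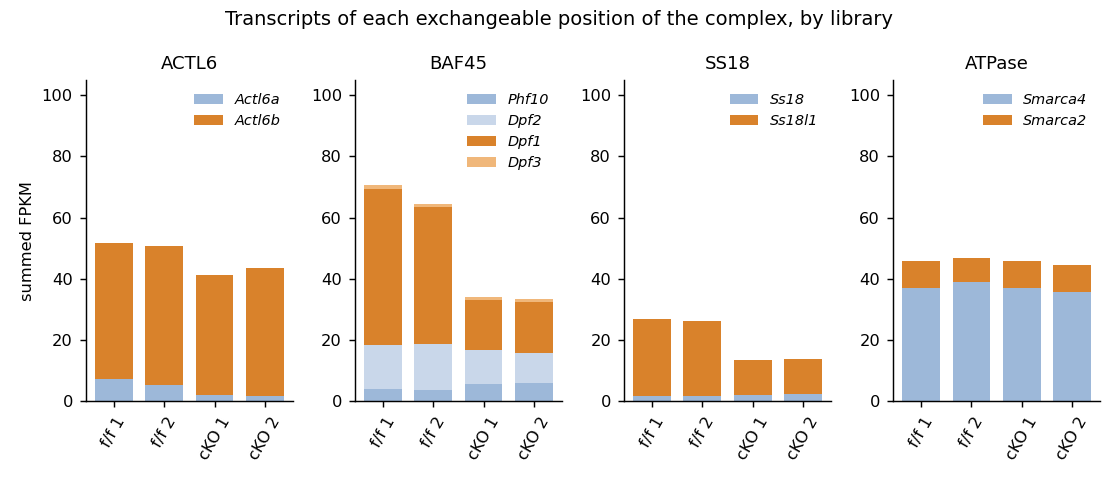
Summed FPKM at each exchangeable position in each library, as stacked bars that start at 0, with 1 colour per gene. Orange shades mark the neuronal paralogs at the ACTL6, BAF45 and SS18 positions (and Smarca2 among the ATPases). The mean totals fell from 67.6 to 33.9 FPKM at BAF45, from 26.5 to 13.8 at SS18 and from 51.2 to 42.4 at ACTL6. The ATPase total was 46.3 and 45.1.

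No change was called in the ATPase genes. Smarca4 (BRG1, ENSMUSG00000032187, chr9:21527465-21615526 as deposited) had 4184 and 4115 counts in Ezh2 f/f against 4170 and 3871 in Ezh2 cKO, or 36.9 and 39.1 against 37.2 and 35.8 FPKM, which overlap. Its log2 fold change was -0.14, with a 95% interval from -0.33 to 0.05 (n = 2 per group, adjusted p = 0.165). Smarca2 (BRM, ENSMUSG00000024921, chr19:26582450-26755722 as deposited) had 2232 and 1781 counts against 2130 and 2063, or 8.93 and 7.67 against 8.61 and 8.67 FPKM, with both Ezh2 cKO libraries between the Ezh2 f/f libraries. Its log2 fold change was -0.03, with a 95% interval from -0.23 to 0.18 (n = 2 per group, adjusted p = 0.831), and its sign turned without Ezh2 f/f library 1 (0.08). The ratio of Smarca2 to Smarca4 was 0.242 and 0.196 in Ezh2 f/f against 0.232 and 0.242 in Ezh2 cKO (exact permutation p = 1.0).

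**Figure D3:**
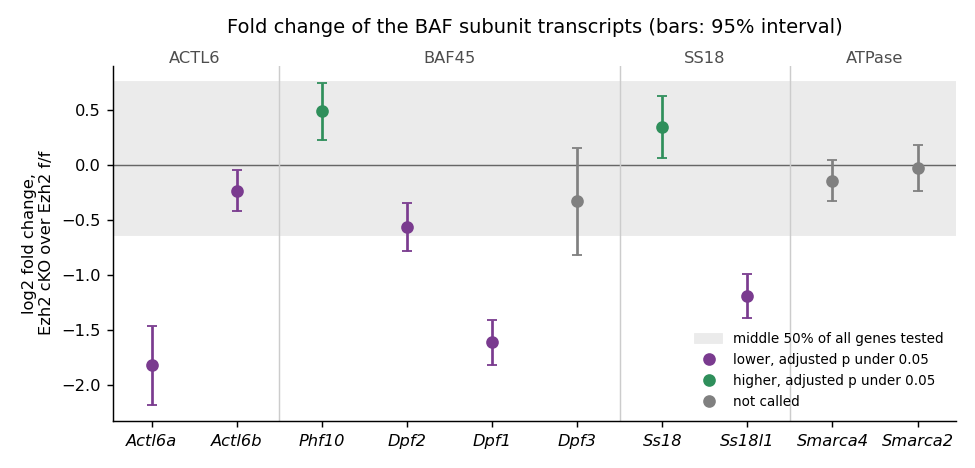
Log2 fold change of each subunit gene with its 95% interval from edgeR, and the middle 50% of all genes tested as a grey band. Actl6a (-1.82), Dpf1 (-1.62) and Ss18l1 (-1.19) lie below the band, and the other 7 genes lie within it.

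The order of levels also changed. In Ezh2 f/f the mean FPKM ran from Dpf1 (47.9) and Actl6b (44.9), which overlapped, through Smarca4 (37.97), Ss18l1 (24.9), Dpf2 (14.6), Smarca2 (8.30), Actl6a (6.35), Phf10 (3.96) and Ss18 (1.63) to Dpf3 (1.14). In Ezh2 cKO Actl6b (40.5) and Smarca4 (36.5) came first, followed by Dpf1 (16.6), Ss18l1 (11.6), Dpf2 (10.5), Smarca2 (8.64), Phf10 (5.90), Ss18 (2.197), Actl6a (1.90) and Dpf3 (0.96). Apart from Dpf1 and Actl6b in Ezh2 f/f, no neighbours in either order overlapped between libraries. Actl6a thus went from above Phf10 and Ss18 to below both. In both groups the neuronal paralog had the higher FPKM at the ACTL6 and SS18 positions. This order, and the shares and ratios between genes, depend on the gene lengths behind the FPKM, such as 14269 bases for Smarca2 and 6475 for Smarca4. Whether those lengths match the transcripts present was not tested. The change between groups in the ratio of a single gene to another does not depend on them.

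Some of these genes lie on top of a gene on the opposite strand, and whether the counting used strand is not given in the sources used here. Actl6a overlaps Mrpl47, a mitochondrial ribosomal protein gene, which had 212 and 176 counts in Ezh2 f/f against 297 and 254 in Ezh2 cKO, the opposite direction to Actl6a. Phf10 overlaps 1600012H06Rik, with 306 and 281 counts against 335 and 302. Dpf1 overlaps the lncRNA Gm44632, with 61 and 44 counts against 16 and 8, few beside those of Dpf1. Actl6a, Dpf2 and Smarca2 also overlap Gm37353, Gm42067, Gm20616 and 4931403E22Rik, each with at most 33 counts in a library.

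The genes whose pattern over the 4 libraries was nearest to that of Actl6a, by Euclidean distance between centred log2 CPM values, were Gm38021 (distance 0.06), Maff (0.07), Gse1 (0.08), Bicra (0.09) and Lhx6 (0.10). Bicra, which encodes a subunit of the non-canonical form of BAF, had a log2 fold change of -1.84 (adjusted p = 2.87e-08). The distance picks genes with similar fold changes, so a fold change close to that of Actl6a is no separate result. Those nearest to Actl6b were Pdxdc1, Ddx1, Mrpl46, Vps33a and Ccdc107, at distances of 0.03 each and with log2 fold changes from -0.26 to -0.20, of which Ddx1 and Vps33a passed the test.

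The shared and accessory subunits of the complex were lower as a group. Of 21 other BAF subunit genes tested, 19 fell and 2 rose, with a median log2 fold change of -0.81, beside 33.6% and 34.7% of all genes and a median of 0.02. Among the core scaffold genes, Smarcb1 (which anchors the complex on the nucleosome) fell by 1.21 and Smarce1 by 1.33 on the log2 scale, with adjusted p = 3.41e-08 and 1.63e-08, both named after their values were seen. Smarcc1 and Smarcc2, the BAF155 and BAF170 scaffolds, fell by 1.06 and 1.01, with Smarcc2 at 114.3 and 114.0 FPKM in Ezh2 f/f against 61.5 and 58.5 in Ezh2 cKO. Arid1a and Arid1b, which encode the alternative DNA-binding subunits, fell by 1.45 and 0.82.

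Other paralog pairs also differed in the size of their fold changes. Smarcd1 (BAF60A) fell from 101.7 and 98.2 to 39.2 and 38.5 FPKM, a log2 fold change of -1.45 ± 0.09 (SE, n = 2 per group, adjusted p = 4.45e-09), and Smarcd3 (BAF60C) from 18.4 and 19.8 to 15.7 and 14.6, a log2 fold change of -0.42 ± 0.10 (adjusted p = 0.00174). Bcl11a and Bcl11b, zinc finger subunits also known as CTIP1 and CTIP2 and used in cortical projection neurons, fell by 0.49 and 0.81. The lowest fold changes in this group were those of Bicra and Bcl7c (-1.59, adjusted p = 9.63e-08). The genes that rose were Brd7 (0.80, adjusted p = 7.34e-06), a bromodomain subunit of the PBAF form, and Bicral (0.47, adjusted p = 0.00235), the paralog of Bicra. PHF10, which rose, is also a subunit of PBAF, although the other PBAF genes Arid2 (-1.08, adjusted p = 1.31e-06) and Pbrm1 (-0.34, adjusted p = 0.0187), named after their values were seen, fell.

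**Figure D4:**
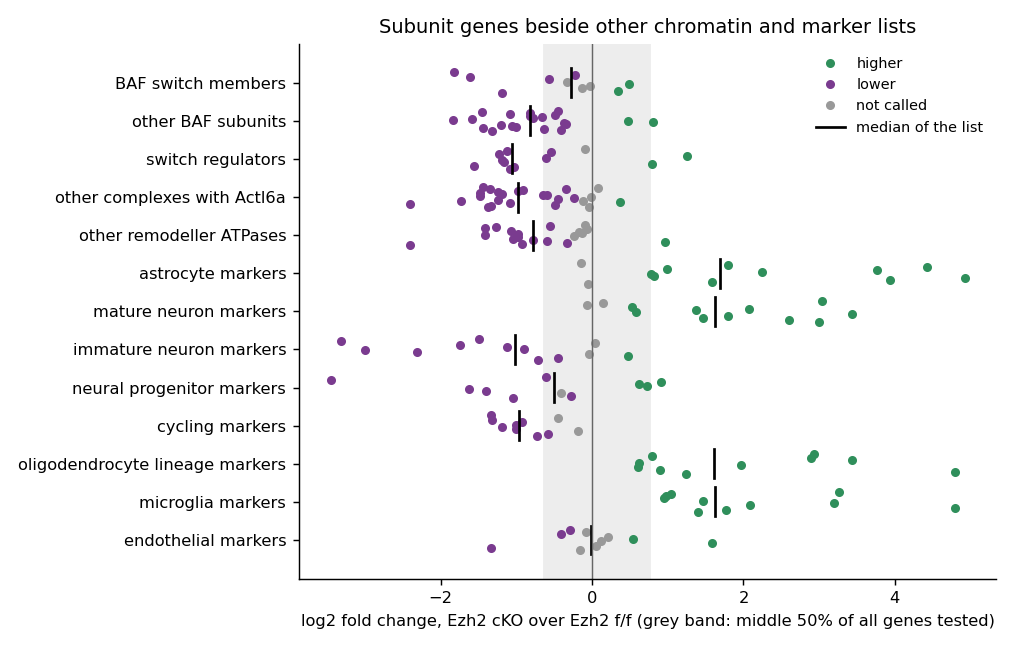
Log2 fold change of each tested gene in the subunit list, 4 related chromatin lists and 8 cell type marker lists, coloured by call, with the median of each list as a black line and the middle 50% of all genes in grey. The medians of the other BAF subunits (-0.81), switch regulators (-1.06), other complexes with Actl6a (-0.98), other remodeller ATPases (-0.78), immature neuron markers (-1.01) and cycling markers (-0.96) lie below the band, and those of astrocyte (1.69), mature neuron (1.63), oligodendrocyte lineage (1.60) and microglia (1.62) markers lie above it.

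The list of switch regulators held 12 genes, among them Rest, its corepressor genes and microRNA hosts. Not all of them are known to act on the exchange themselves. Of the 12, 9 fell, 2 rose and 1 (Ctdsp1, named after its value was seen) was not called, with a median log2 fold change of -1.06. Across all genes tested, 33.6% fell and 34.7% rose. Rest itself was low, at 1.21 and 1.20 FPKM in Ezh2 f/f against 0.607 and 0.639 in Ezh2 cKO, with a log2 fold change of -1.03 ± 0.19 (SE, n = 2 per group, adjusted p = 2.83e-04). Its corepressor genes Rcor2 and Kdm1a fell by 1.56 and 1.23 on the log2 scale, whereas Rcor1 (CoREST) rose by 0.80 (adjusted p = 9.42e-04). Ptbp1, a splicing repressor that miR-124 targets, fell from 14.8 in both Ezh2 f/f libraries to 6.90 and 6.81 FPKM, a log2 fold change of -1.20 (adjusted p = 6.96e-08). Its neuronal paralog Ptbp2 fell by 1.16 (adjusted p = 7.76e-07).

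The small RNAs were not analysed here. Of the long transcripts from which they are cut, a listed host of miR-124 and a listed host of miR-9 went in opposite directions. Any other host transcripts were not examined. Mir124a-1hg, a host transcript of miR-124, rose from 12.6 and 12.8 FPKM in Ezh2 f/f to 32.4 and 31.4 in Ezh2 cKO, with a log2 fold change of 1.25 ± 0.09 (SE, n = 2 per group, adjusted p = 4.33e-08). Mir9-3hg, a host transcript of the microRNA whose seed match stands in the 3' UTR of Actl6a above and named after its value was seen, fell from 26.0 and 26.8 to 19.0 and 17.8 FPKM, a log2 fold change of -0.61 ± 0.09 (adjusted p = 5.73e-05). Smarca2, the other member with that seed match, was not called. A host transcript does not measure the mature microRNA.

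ACTL6A is also a subunit of the INO80, SRCAP and TIP60 complexes, and most of their genes were lower as well. Of 25 genes tested, 20 fell, 1 rose and 4 were not called (Ino80d, Znhit1, Actr6 and Morf4l1, named after their values were seen), with a median log2 fold change of -0.98. The shares over all genes tested were 33.6% lower and 34.7% higher. Nfrkb, an INO80 subunit, fell by 1.73 (adjusted p = 3.2e-09). Ruvbl1, an ATPase of all 3 complexes, rose by 0.37 (adjusted p = 0.00424), while Ino80e fell by 0.24 (adjusted p = 0.0489). Srcap had the lowest fold change, -2.40 ± 0.44 (SE, adjusted p = 2.3e-04), from 53 and 28 counts against 7 and 9.

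Among 19 ATPase genes of other chromatin remodellers, 13 fell, 1 rose and 5 were not called, with a median log2 fold change of -0.78. This stands beside 33.6% lower and 34.7% higher of all genes tested. Ino80, Srcap and Ep400, which all fell, are counted both here and among the genes of the INO80, SRCAP and TIP60 complexes. Under limma on log2(FPKM + 1), 8 fell. Besides Srcap, Chd8 (-1.42, adjusted p = 1.8e-08) and Chd2 (-1.42, adjusted p = 1.42e-08, named after its value was seen) fell most among these. The ISWI genes differed, with Smarca1 (SNF2L) higher by 0.96 (adjusted p = 1.4e-04) and Smarca5 (SNF2H) lower by 0.33 (adjusted p = 0.0459). The genes not called were Chd3, Chd5, Chd6, Chd9 and Atrx, named after their values were seen, so that Smarca4 and Smarca2 were not alone among the remodeller ATPases in missing the test.

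The cell type markers describe RNA of the sorted cells and do not measure cell numbers, and their part in the subunit results was not tested. Their counts stand beside 34.7% higher and 33.6% lower of all genes tested. Of 12 astrocyte markers, 10 rose and none fell, with S100b (4.92) and Aqp4 (4.42) highest, while Aldh1l1, whose promoter drives Cre, was not called (-0.15, adjusted p = 0.175). Sox9, named after its value was seen, was the other marker not called. Of 12 mature neuron markers, 10 rose, none fell and 2 (Gad1 and Gad2) were not called, with Slc17a7 (3.44), a vesicular glutamate transporter, and Camk2a (3.04) highest. Rbfox3 (NeuN) rose by 0.58, and Map2 by 0.53. Of the neuronal subunit genes in the same libraries, Dpf1 (-1.62) and Ss18l1 (-1.19) fell steeply. Actl6b fell less (-0.23), and Dpf3 (-0.33) was not called.

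Most markers of immature neurons and of dividing cells were lower in Ezh2 cKO. Of 12 immature neuron markers 9 fell, led by Igfbpl1 (-3.31) and Sox11 (-2.99), 1 (Stmn2, 0.47) rose and 2 (Stmn1 and Neurod1) were not called. Of 10 cycling markers 8 fell, led by Aurkb (-1.34) and Ccnb1 (-1.32), none rose and 2 (Pcna and Birc5) were not called. Of 10 neural progenitor markers 6 fell, with Eomes (-3.46) and Nes (-1.63) lowest, 3 rose (Fabp7 by 0.91, Hes5 by 0.72 and Hes1 by 0.63) and Prom1 was not called. All 10 oligodendrocyte lineage markers rose, among them Mbp (3.44), as did all 10 microglia markers, P2ry12 (4.79) and Aif1 (3.27) most. Of 10 endothelial markers 2 rose (Ly6c1 and Flt1), 3 fell (Slc2a1, Egfl7 and Cdh5) and 5 were not called (Cldn5, Pecam1, Kdr, Tek and Esam). The uncalled markers, Hes1 and Cdh5 are named after their values were seen. No marker was at 0 in all libraries.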

How the data were processed

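Total RNA of 4 libraries was sequenced on an Illumina HiSeq platform. The authors deposited the count of reads per gene without normalization and FPKM values. The submitters' processing notes name Bowtie2 2.2.3, TopHat2 2.0.12, HTSeq 0.6.0 and the build mm9, without roles or settings. The build of the deposited positions is not named in the tables. Of 28799 genes with an identifier in GENCODE M21 (GRCm38), 581 have the same coordinates there, so positions are printed as deposited, while promoter and 3' UTR positions are on GRCm38. In the deposited FPKM, counts divided by the column total gave one whole-number gene length in 100% of genes (relative tolerance 1e-06). The deposited table also holds the authors' own mean signal, ratio and p-values, which were not used.

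Counts were tested in R 4.3.3 with edgeR 4.0.16 (filterByExpr, TMM, quasi-likelihood test with the group as the only term), with Benjamini-Hochberg adjustment over 16793 genes and calls at an adjusted p under 0.05. The TMM factors were 0.976, 0.967, 1.019 and 1.040, and the common biological coefficient of variation was 0.0953. Ratios between genes were taken on FPKM, with an exact two-sided permutation test. Alternatives used DESeq2 1.42.0, limma 3.58.1 on log2(FPKM + 1) or log2(FPKM + 0.1) over genes with FPKM of at least 1 in 2 libraries, other filters, a replicate block and each library left out in turn. The tools otherwise were Python 3.11.15, numpy 2.4.6, pandas 2.3.3 and scipy 1.17.1. Every sample column was used.

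The subunit genes and all lists were chosen with earlier results of these data known. The genes named are the 10 subunit genes, Ezh2, the called genes with the 2 highest and 2 lowest fold changes of each other list, list genes with a described role in the exchange, and the 5 genes nearest in pattern to Actl6a and to Actl6b, besides those said to be named after their values were seen. One gene that this rule names is not reported here.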

Additional observations from a re-analysis of the deposited data

How the results depend on the processing

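Actl6a (log2 fold change from -2.02 to -1.33), Dpf1 (-1.72 to -1.47), Ss18l1 (-1.22 to -1.04), Dpf2 and Phf10 kept their direction and call in all 11 alternatives, and Dpf3 and Smarca4 stayed uncalled in all 11. The members called higher went from 2 to 1, with the loss of Ss18, under DESeq2's Wald test (adjusted p = 0.110), limma on log2(FPKM + 1) (0.0548), limma on log2(FPKM + 0.1) (0.0591) and no filter (0.0554), and ranged from 1 to 2 when each library was left out. Actl6b lost its call under limma, with adjusted p = 0.0930 and 0.0943. The sign of Smarca2 turned with a mean count of at least 50 (0.01), under limma (0.055 with a pseudocount of 1 and 0.062 with 0.1) and without Ezh2 f/f library 1 (0.081), with a lowest value of -0.139 over left-out libraries. The log2 change of the Smarca2 to Smarca4 ratio ranged from -0.032 to 0.27 over left-out libraries, turning without Ezh2 f/f library 2. Other remodeller ATPases called lower went from 13 to 8 under both limma settings, which leave out Hells, Chd7 and Srcap as under their FPKM filter. The cause of the other losses was not tested. Where a group is left with 1 library, that library is assumed to vary like the other group.

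The labels number the libraries 1 and 2 in both groups without naming a shared litter or day, and same-numbered libraries had deviations correlated at 0.130, and 2 pairs are too few to tell whether they were paired. With the replicate block, 5795 genes were called higher and 5599 lower beside 5831 and 5650, the members called stayed at 2 higher and 5 lower, and Actl6b had an adjusted p of 0.0395 and Ss18 of 0.0408. With 2 libraries per group the spread is poorly known, and low counts limit Dpf3.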
